A study of Homo sapiens with 6 samples.

Results

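The AP-1 transcription factors were followed in HepG2 cells through 10 genes: the JUN family (JUN, JUNB, JUND), the FOS family (FOS, FOSB, FOSL1, FOSL2), ATF3, and the small MAF genes MAFF and MAFK. The genes were taken by name from the 57773 genes of the deposited count table, and each name matched a single row. RNA came from 6 cultures of HepG2, a line established from a human hepatocellular carcinoma, of which 3 received recombinant TGFβ1 ligand at 5 ng/mL and 3 received the vehicle, each for 3 h in medium without serum. All cultures are of this 1 line, so they stand for its response alone. Cultures are numbered 1 to 3 in each group. The sample annotation used here puts both cultures 1 on lane 1 and both cultures 2 on lane 3. It puts vehicle culture 3 on lane 4 and TGFβ culture 3 on lane 5. The headers of the count columns give the culture number and no lane.

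AP-1 is a dimer of basic leucine zipper (bZIP) proteins that binds DNA at the TPA response element, and with ATF partners at the cyclic AMP response element. JUN proteins pair with each other or with FOS proteins, whereas FOS proteins need a JUN partner to bind. Many of these genes are immediate early genes: their transcription is switched on within minutes by growth factors, cytokines and stress, without new protein synthesis. SMAD3, the transducer of TGFβ, is known to act together with AP-1 at some of its target genes. The small MAF proteins have a bZIP domain but no activation domain of their own, and pair with NRF2 and related factors.

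The members differed widely in their response. JUNB, which codes for a JUN protein with weaker activation than c-JUN at many sites, rose 12.7-fold, and FOSB rose 3.69-fold. FOSL2 rose 1.45-fold and JUN rose 1.35-fold. In bulk RNA, more cells with a transcript and more of it per cell cannot be told apart. These 4 of the 10 members passed an FDR of 0.05 in the upward direction (edgeR's quasi-likelihood test, adjusted over all 22747 tested genes), against 3.11% of all tested genes. None was lower (0 of 10, against 1.01% of tested genes); 0 members were lower at an unadjusted P under 0.05, against 4.97% of tested genes, and 0 were called lower by DESeq2 or limma-voom. With the culture number as a block, JUND, ATF3 and MAFK also passed, which made 7 of 10 higher and 0 lower, against 8.08% and 3.75% of tested genes. FOS, FOSL1 and MAFF did not pass in either fit. All 10 genes passed the filter on low counts, and the median log2 fold change of the members was 0.42, against -0.01 for all tested genes.

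Proximal promoters are shown for 4 members picked by their values. JUNB and FOSB had the largest changes, and JUND and FOS are relatives that did not pass the test without the block. JUND passed with the block (FDR 0.0316). The part of these sequences in the changes was not tested. Sequences are from RefSeq, matched to a single place in GRCh37, the assembly of hg19, and run 5′ to 3′ on the gene's strand. They end before the first annotated transcribed base. Capitals mark the TATA box (TATAAA), the CCAAT box (CCAAT), the cyclic AMP response element (TGACGTCA) or its core (TGACG), and the SMAD core motif (CAGAC), each searched on both strands except TATAAA.
JUNB, chr19:12902050-12902299, plus strand: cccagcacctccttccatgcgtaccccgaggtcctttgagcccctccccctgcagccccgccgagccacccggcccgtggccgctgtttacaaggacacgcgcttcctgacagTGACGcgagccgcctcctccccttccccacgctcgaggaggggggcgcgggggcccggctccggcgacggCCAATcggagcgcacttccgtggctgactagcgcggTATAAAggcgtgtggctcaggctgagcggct
JUND, chr19:18392433-18392682, minus strand: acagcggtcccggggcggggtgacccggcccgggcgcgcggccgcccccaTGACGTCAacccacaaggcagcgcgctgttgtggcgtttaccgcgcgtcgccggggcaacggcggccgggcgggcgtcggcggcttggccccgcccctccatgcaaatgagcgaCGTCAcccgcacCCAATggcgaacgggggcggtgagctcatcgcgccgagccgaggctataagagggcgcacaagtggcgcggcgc
FOSB, chr19:45971004-45971252, plus strand: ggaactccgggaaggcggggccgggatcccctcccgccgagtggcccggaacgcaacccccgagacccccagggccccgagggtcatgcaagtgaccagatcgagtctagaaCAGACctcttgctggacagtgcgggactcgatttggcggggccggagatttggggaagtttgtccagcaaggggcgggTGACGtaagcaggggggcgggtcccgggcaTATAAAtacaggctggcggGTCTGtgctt
FOS, chr14:75745281-75745476, plus strand: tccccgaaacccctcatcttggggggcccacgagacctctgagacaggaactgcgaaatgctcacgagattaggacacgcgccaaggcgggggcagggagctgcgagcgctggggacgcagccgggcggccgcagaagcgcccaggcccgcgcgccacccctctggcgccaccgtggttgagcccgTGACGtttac

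The 250 bases upstream of the RefSeq start were searched in 10 promoters of 8 members. ATF3 and MAFF have more than 1 entry, and FOSL1 and MAFK have none. In JUNB a TATAAA begins at position -31, a CCAAT at -67 and a TGACG at -137, counted from the RefSeq start. FOSB has TATAAA at -30, TGACG at -60 and SMAD core motifs at -138 and -11. In FOS, TATAAA at -33 lies past the printed end, in a stretch that the table's gene model counts as transcribed, and TGACG lies at -64. JUND has a full TGACGTCA at -200 and no TATAAA. The core TGACG was present in 7 of the 10 member promoters, against 21.2% of all 35116 promoters of the same length, and TGACGTCA, which contains it, in 2 against 1.65%. TATAAA was present in 4, against 6.8%, and CCAAT in 5, against 32%. The SMAD core was present in 4 of 10, one each at FOSL2, the second ATF3 start and the second MAFF start besides FOSB, against 38% of all promoters. The TPA response element (TGACTCA or its complement) was found in 0 of 10, against 4.2%, and the CArG box of SRF in 0 of 10, against 1.16%. These are matches of letters in a short window only.

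JUNB (ENSG00000171223, chr19:12902310-12904124, plus strand) was counted 681, 594 and 523 times in vehicle cultures 1, 2 and 3, and 8685, 8965 and 6878 times in TGFβ cultures 1, 2 and 3. Coordinates of genes are those of the deposited table on hg19, and strands are from GENCODE. In CPM, counts rescaled so that all libraries have the same effective total (TMM), these were 7.71, 7.17 and 8.49 with vehicle and 89.6, 111 and 94.4 with TGFβ. Every TGFβ culture was more than 10 times above every vehicle culture. The log2 fold change was 3.66 (standard error 0.11, FDR 6.29e-07), with a 95% interval from 10.6-fold to 15.0-fold. By P value JUNB ranked 1 among the 22747 tested genes, and by log2 fold change it ranked 10. The ratio within numbered pairs was 3.54, 3.96 and 3.47 on the log2 scale for pairs 1, 2 and 3. The pairs annotated to a shared lane and the pair annotated to different lanes all showed the rise. JUNB lies inside the span that the table gives HOOK2 (12873817 to 12983554), which went from 3439 to 8044 reads over the group (log2 fold change 1.11, FDR 0.000581). JUNB itself went from 1798 to 24528 reads. How the authors assigned reads shared by overlapping genes is not given in the sources used here.

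JUN (ENSG00000177606, chr1:59246465-59249785, minus strand), which codes for c-JUN, the best known AP-1 subunit, stood at 46.5, 51.3 and 47.3 CPM with vehicle and at 60.6, 72.4 and 62.9 CPM with TGFβ. The groups did not overlap, but the step was small beside that of JUNB. The log2 fold change was 0.43 (standard error 0.09, FDR 0.0212), and the pairs gave 0.38, 0.50 and 0.41. With the culture number as a block, JUN also passed (FDR 0.000237, standard error 0.05). The call without the block was lost when vehicle replicate 1, 2 or 3 was left out (FDR 0.0781, 0.0521 and 0.112). It was also lost without TGFβ replicate 2 (FDR 0.0988). Log2 fold changes ran from 0.34 to 0.48 over the 6 fits that leave out 1 culture, all without the block.

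JUND (ENSG00000130522, chr19:18390563-18392432, minus strand), often held at a steady level in resting cells, had 90.1, 73.8 and 83.6 CPM with vehicle and 131, 109 and 89.2 CPM with TGFβ. The groups overlapped, since TGFβ culture 3 lay just below vehicle culture 1. JUND had a log2 ratio of groups of 0.41 (FDR 0.151, standard error 0.13), with a 95% interval from 1.09-fold to 1.64-fold. JUND passed with the culture number as a block (FDR 0.0316) and without TGFβ replicate 3 (log2 fold change 0.54, FDR 0.0221). Its pairs gave 0.54, 0.57 and 0.09.

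**Figure D1:**
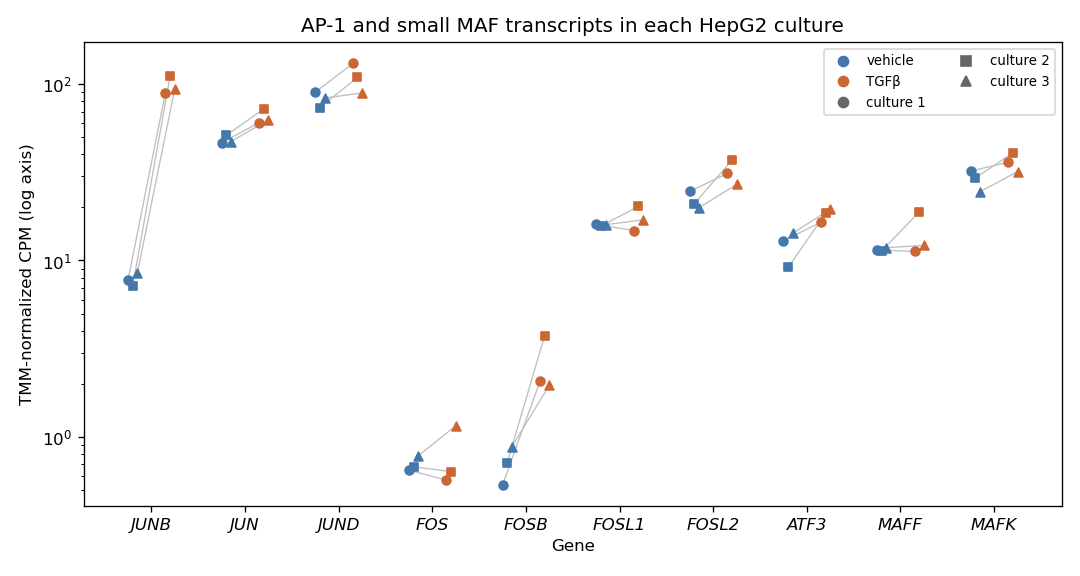
TMM-normalized CPM of each member on a log axis in 3 vehicle cultures (blue) and 3 TGFβ cultures (orange), with gray lines joining cultures of the same number. JUNB moved from between 7.17 and 8.49 CPM to between 89.6 and 111 CPM, while FOS stayed near 1 CPM in both groups and its groups overlapped.

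FOSB (ENSG00000125740, chr19:45971253-45978437, plus strand) codes for a FOS protein whose short splice form is known from long-lasting stimulation of neurons. Its reads were few, 47, 59 and 54 in the vehicle cultures and 200, 301 and 143 in the TGFβ cultures, or 0.532, 0.712 and 0.877 CPM against 2.06, 3.74 and 1.96 CPM. The groups did not overlap, and TGFβ culture 2 was the highest. FOSB had a log2 ratio of groups of 1.88 (FDR 0.00682, standard error 0.30), with a 95% interval from 2.31-fold to 5.90-fold. It passed the threshold whichever culture was left out, with values from 1.51 without TGFβ replicate 2 to 2.06 without vehicle replicate 3. The table places FOSB inside the span of ERCC1, a DNA repair gene, whose log2 fold change was -0.01 (FDR 0.983). ERCC1 had far more reads, 9323 over the vehicle cultures and 9979 over the TGFβ cultures, against 160 and 644 for FOSB. Whether reads of ERCC1 were counted for FOSB was not tested.

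FOS (ENSG00000170345, chr14:75745477-75748933, plus strand), the classic immediate early gene, was counted 57, 56 and 48 times in vehicle cultures and 55, 51 and 84 times in TGFβ cultures. Only TGFβ culture 3, at 1.15 CPM, stood above the vehicle cultures, which lay between 0.646 and 0.780 CPM. For FOS the log2 fold change was 0.16 (standard error 0.30, FDR 0.895), and its 95% interval ran from 0.703-fold to 1.77-fold. Without TGFβ replicate 3 the value was -0.22. All cultures were treated for 3 h, so a rise of FOS that had already passed would not be seen.

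FOSL2 (ENSG00000075426, chr2:28615315-28640179, plus strand), which codes for FRA-2, stood at 24.7, 21.0 and 20.0 CPM with vehicle and at 31.2, 37.1 and 27.0 CPM with TGFβ. The groups did not overlap, with TGFβ culture 3 closest to the vehicle cultures. FOSL2 had a log2 ratio of groups of 0.54 (FDR 0.0442, standard error 0.13). With the culture number as a block, FOSL2 also passed (FDR 0.00299, standard error 0.09). The call without the block was close to the threshold. Without the block, limma-voom (FDR 0.0567) and scaling by the total count (FDR 0.0595) did not give it. It was also lost without vehicle replicate 2 (FDR 0.188), vehicle replicate 3 (FDR 0.204), TGFβ replicate 1 (FDR 0.0943) or TGFβ replicate 2 (FDR 0.167).

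FOSL1 (ENSG00000175592, chr11:65659520-65668044, minus strand), which codes for FRA-1 and is itself a known AP-1 target, was nearly level among the vehicle cultures, at 16.0, 15.7 and 16.0 CPM, and stood at 14.8, 20.3 and 17.0 CPM with TGFβ. TGFβ culture 1 lay below and TGFβ culture 2 above all vehicle cultures. For FOSL1 the log2 fold change was 0.13 (standard error 0.12, FDR 0.756), with a 95% interval from 0.911-fold to 1.31-fold, and it was -0.0096 without TGFβ replicate 2.

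ATF3 (ENSG00000162772, chr1:212738676-212794119, plus strand) codes for a stress-induced bZIP protein that represses many promoters as a homodimer. Vehicle cultures had 12.9, 9.13 and 14.3 CPM and TGFβ cultures had 16.5, 18.5 and 19.5 CPM. The groups did not overlap, though the vehicle cultures were spread, with culture 2 the lowest. At 0.59 the log2 fold change (standard error 0.16, FDR 0.0761) missed the threshold, with a 95% interval from 1.18-fold to 1.91-fold. ATF3 passed with the culture number as a block (FDR 0.0133), with DESeq2 (FDR 0.00696) and without a filter on low counts (FDR 0.0157).

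MAFK (ENSG00000198517, chr7:1570350-1582679, plus strand) stood at 32.1, 29.4 and 24.6 CPM with vehicle and at 36.1, 40.8 and 31.9 CPM with TGFβ. The groups overlapped narrowly, at TGFβ culture 3 and vehicle culture 1. MAFK had a log2 ratio of groups of 0.34 (FDR 0.206, standard error 0.12), and it passed with the culture number as a block (FDR 0.00647), and all 3 pairs were higher with TGFβ, by 0.17, 0.47 and 0.38. MAFK overlaps AC093734.1 and TMEM184A in the table; their log2 fold changes were 0.30 (FDR 0.325) and 0.12 (FDR 0.778).

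MAFF (ENSG00000185022, chr22:38597889-38612518, plus strand) was at 11.5, 11.3 and 11.8 CPM with vehicle and at 11.3, 18.9 and 12.2 CPM with TGFβ. Only TGFβ culture 2 stood apart from the vehicle cultures. For MAFF the log2 fold change was 0.29 (standard error 0.18, FDR 0.578), and it was 0.01 without TGFβ replicate 2.

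**Figure D2:**
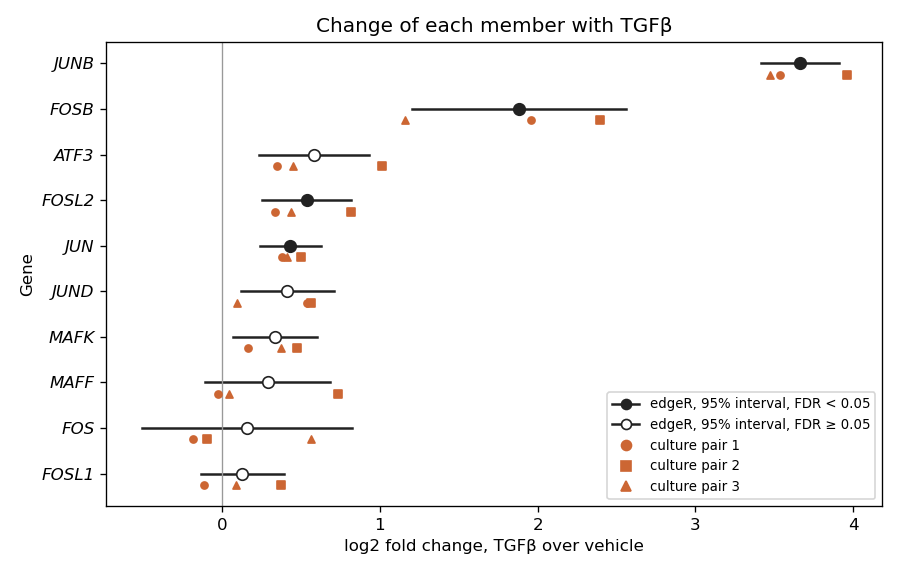
Log2 fold change of each member, TGFβ over vehicle, from edgeR with its 95% interval (filled circle at an FDR under 0.05, open circle otherwise) and the log2 ratio of CPM within each numbered culture pair (orange). JUNB at 3.66 and FOSB at 1.88 stand apart, and the other 8 members lie between 0.13 and 0.59. Pair 2 gave the highest ratio in 9 of 10 members, and the share of all tested genes with this pattern was not computed.

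Across the members, 5 of 10 had every TGFβ culture above every vehicle culture (JUNB, JUN, FOSB, FOSL2 and ATF3) and 0 had the reverse, against 10.4% and 8.23% of tested genes. For each of these 5 the exact two-sided permutation P was 0.1, the smallest that 3 cultures against 3 allow. All 3 numbered pairs were higher with TGFβ in 7 of 10 members. Pair 2 gave the highest ratio in every member except FOS. The shares of all tested genes with these patterns were not computed, so neither count is read as particular to the members.

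Levels of different genes were compared by the deposited RPKM, which divides reads by the coding length of the gene in the table and by a library total. With vehicle, JUND was the most abundant member, at 36.4 ± 2.92 RPKM (SD, n = 3), followed by JUN at 12.1 ± 0.925, FOSL1 at 6.96 ± 0.0745, MAFK at 5.33 ± 0.734, JUNB at 3.55 ± 0.241 and MAFF at 3.21 ± 0.0541. FOSL2 at 2.53 ± 0.271 and ATF3 at 2.50 ± 0.503 came next and did not differ beyond their spread. FOS at 0.179 ± 0.0168 and FOSB at 0.105 ± 0.0255 were the lowest. In this order every neighboring pair other than FOSL2 and ATF3 was separated in all 3 vehicle cultures. With TGFβ, JUND at 47.5 ± 10.0 RPKM and JUNB at 43.8 ± 6.20 RPKM did not differ beyond their spread. They were followed by JUN at 15.9 ± 1.94 and FOSL1 at 7.42 ± 1.33. Neighbors that overlapped with TGFβ were FOSL1 and MAFK, MAFF and ATF3, ATF3 and FOSL2, and FOSB and FOS. JUNB moved from the 58.9 to the 96.0 percentile of RPKM among tested genes, and FOSB from the 9.84 to the 24.4 percentile.

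The makeup of the JUN family by RPKM moved with JUNB. JUNB held 6.40%, 6.71% and 7.36% of the summed JUN family RPKM in vehicle cultures 1, 2 and 3, and 35.8%, 43.3% and 43.8% in TGFβ cultures 1, 2 and 3. JUND held 69.9% ± 2.76 (SD, n = 3) with vehicle and 44.1% ± 5.90 with TGFβ, and JUN 23.2% ± 2.69 and 14.9% ± 1.44. These lower shares stand beside RPKM values of JUND and JUN that were not lower with TGFβ. The family sum was 52.0 ± 2.14 RPKM with vehicle and 107 ± 13.4 RPKM with TGFβ. In the FOS family, FOSL1 held 71.2% ± 1.65 with vehicle and 64.1% ± 2.63 with TGFβ, FOSL2 25.8% ± 2.14 and 31.0% ± 3.11, FOSB 1.08% ± 0.287 and 3.18% ± 0.734, and FOS 1.83% ± 0.220 and 1.73% ± 0.795. The FOS family sum was 9.77 ± 0.249 RPKM with vehicle and 11.6 ± 2.04 RPKM with TGFβ. No test was made on these shares, which describe RNA and not protein.

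**Figure D3:**
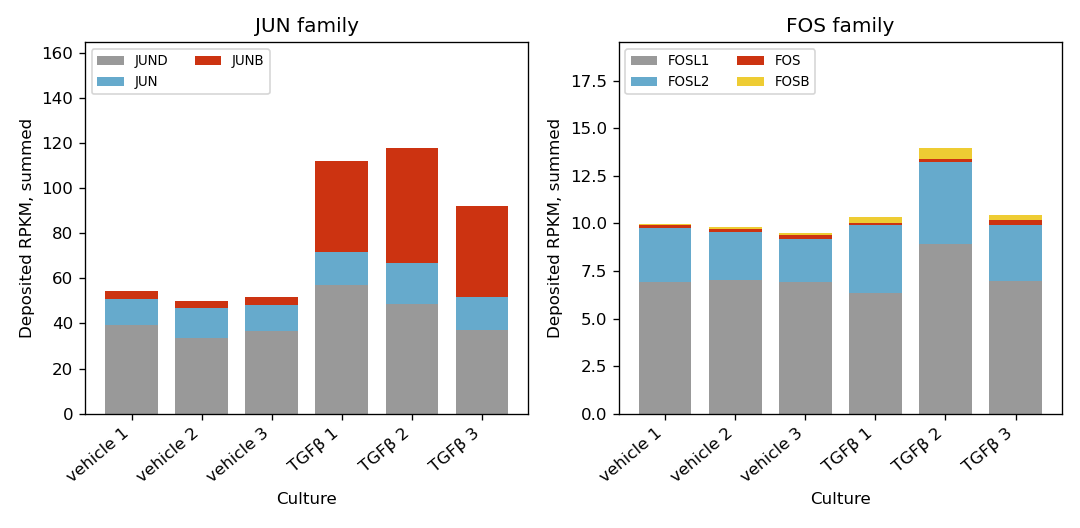
Deposited RPKM of JUN family genes (left) and FOS family genes (right), stacked for each of the 6 cultures from a baseline of 0. The JUN family sum lay at 54.2, 50.0 and 51.9 RPKM with vehicle and at 112, 117 and 91.9 RPKM with TGFβ, and JUNB made up most of the added height.

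Genes around AP-1 were counted in lists written from general knowledge, but with earlier results of these data known. The same holds for the choice of members, so the list counts and medians are a description and no independent support. The list counts stand beside shares over all 22747 tested genes of 3.11% higher and 1.01% lower at an FDR under 0.05. With the block these shares were 8.08% and 3.75%. Whether a short list with 1 or 2 genes called differs from these shares was not tested. Of 42 other bZIP genes, 37 were tested; 3 rose and 4 fell with TGFβ, and the list's median log2 fold change was 0.02. JDP2, a JUN dimerization protein that represses AP-1 sites, rose 1.61-fold (FDR 0.00362), and MAFG, the other small MAF gene, rose 1.29-fold (FDR 0.0401). The 4 that fell were HLF (0.629-fold, FDR 0.000888) and TEF (0.645-fold, FDR 0.0121), which with NFIL3 bind the D-box of clock-controlled genes, and, outside the rule for named genes, NFIL3 (0.664-fold, FDR 0.0237) and XBP1 (0.748-fold, FDR 0.00557), a factor of the unfolded protein response. With the block, 8 rose and 7 fell.

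Of 40 kinases and SRF-linked factors upstream of AP-1, 38 were tested; 4 rose, and 0 fell by edgeR, with 2 lower at an unadjusted P under 0.05, 1 called lower by DESeq2 and 0 by limma-voom. The median log2 fold change was 0.07. MKL1, an actin-regulated partner of SRF, rose 2.53-fold (FDR 5.74e-05), ELK3, an ETS partner of SRF, rose 1.87-fold (FDR 0.00629), MAPK7, which codes for ERK5, rose 1.47-fold (FDR 0.0168), and MAPK14, which codes for p38α, rose 1.38-fold (FDR 0.00361). With the block, 9 rose and 2 fell.

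Of 29 textbook targets of AP-1, 20 had enough reads to be tested, 6 rose, and 0 fell by edgeR, with 2 lower at an unadjusted P under 0.05, 1 called lower by DESeq2 and 0 by limma-voom. Among those with too few reads were IL6, PTGS2, MMP10, MMP13 and CD44. The median log2 fold change was 0.45. IL11, a cytokine of the gp130 family, rose 2.84-fold (from 7.62 ± 2.20 to 21.6 ± 5.79 CPM, SD, n = 3, FDR 0.00543). HMOX1, heme oxygenase, rose 1.86-fold (FDR 0.0237) and CCND1, cyclin D1, rose 1.60-fold (FDR 0.000689). Outside the rule for named genes, TGFB1 rose 1.57-fold (FDR 0.00336) and DUSP1, a MAP kinase phosphatase, 1.51-fold (FDR 0.0125). With the block, 10 rose and 2 fell. Several of these genes are also direct targets of SMADs, and the part of AP-1 in their change was not tested.

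Of 14 other immediate early genes, all were tested; 6 rose and 1 fell, with a median log2 fold change of 0.62. EGR3 rose 4.35-fold (FDR 0.00886), from a low level of 0.232 ± 0.0459 CPM to 1.03 ± 0.408 CPM (SD, n = 3). GADD45B, a stress sensor, rose 3.54-fold (FDR 0.000203) and ZFP36, which destabilizes AU-rich transcripts, 2.63-fold (FDR 0.000213). CYR61, a matricellular protein gene, rose 1.98-fold (FDR 0.00499). IER2 (1.62-fold, FDR 0.00757, outside the rule for named genes) and DUSP1 were the others. MYC fell to 0.474-fold (FDR 9.92e-05). With the block, 9 rose and 2 fell.

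The remaining lists hold genes of stress responses and targets of NRF2 with small MAF proteins. Of 13 genes of the integrated stress response, 1 rose, DDIT4 (2.32-fold, FDR 0.0106), and 0 fell by edgeR, DESeq2 or limma-voom, with 0 lower at an unadjusted P under 0.05. ATF4, the activator upstream of ATF3 in that response, had a log2 fold change of 0.03 (FDR 0.942), and DDIT3, the gene for CHOP, of -0.19 (FDR 0.565). Both genes were chosen after their values were seen. These are RNA levels only, and the part of that response in the ATF3 values was not tested. Of 10 heat shock genes, 1 rose, DNAJB1 (1.32-fold, FDR 0.0270), and 0 fell by any of these tools, with 1 lower at an unadjusted P under 0.05. Of 10 targets of NRF2 with small MAF proteins, 2 rose, HMOX1 and SRXN1 (1.24-fold, FDR 0.0307), and 0 fell by any of these tools, with 1 lower at an unadjusted P under 0.05. The medians of these 3 lists were 0.03, -0.03 and 0.05. With the block, 2 rose and 1 fell in the first, 3 rose and 0 fell in the second, and 3 rose and 2 fell in the last.

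**Figure D4:**
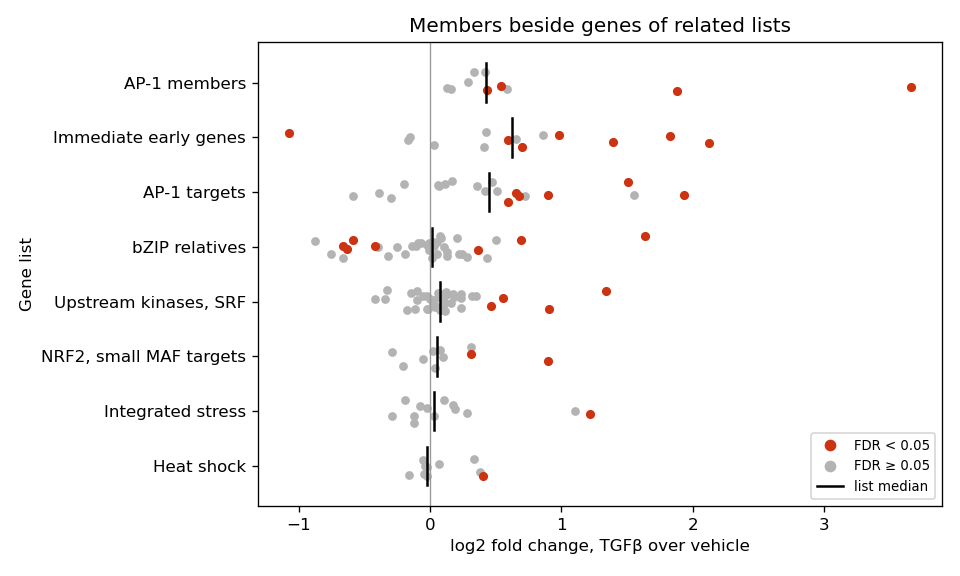
Log2 fold change, TGFβ over vehicle, of each tested gene in the member list and in 7 related lists, with genes at an FDR under 0.05 in red and list medians as black bars. The medians of the member, immediate early and AP-1 target lists lie at 0.42, 0.62 and 0.45, and those of the other 5 lists between -0.03 and 0.07. Members and lists were chosen with earlier results of these data known.

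The genes whose profile over the 6 cultures was closest to each called member were taken by Pearson correlation of log2 CPM, as a description over 6 points that share their libraries. For JUNB they were SPACA6P, RP11-539L10.2 and AC012531.23 (r of 0.999, 0.998 and 0.998), with log2 fold changes of 1.92, 0.81 and 5.25. For JUN they were CTD-3060P21.1, IRF1 and ADCY3 (0.999, 0.998 and 0.996), with log2 fold changes of 1.32, 0.45 and 0.10, the last with an FDR of 0.623. IRF1 codes for an interferon regulatory factor. For FOSB they were MIDN, RAB22A and ADD3 (0.998, 0.996 and 0.996), with log2 fold changes of 0.54, 0.19 and 0.46. For FOSL2 they were SLC5A10, TFE3 and RP11-616M22.3 (0.995, 0.994 and 0.994), with log2 fold changes of 0.84, 0.44 and 1.29.

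Reads assigned to genes numbered from 60815385 to 88415362 in a vehicle culture and from 73263662 to 100099136 in a TGFβ culture. The 4 known TGFβ targets used to check the labels all rose (log2 fold changes from 1.72 to 4.30). The 8 hepatocyte markers were present, with a summed level between 34080 and 37909 CPM with vehicle and between 32661 and 36612 CPM with TGFβ. Of the 6 fibroblast or stellate markers, 4 (COL1A2, COL3A1, DCN and LUM) were under 1 CPM in every culture, and the list's sum lay between 13.6 and 15.0 CPM with vehicle and between 23.3 and 34.7 CPM with TGFβ, carried by PDGFRB and COL1A1. The 4 endothelial markers found in the table summed to between 0.205 and 0.272 CPM. Of the 6 leukocyte or Kupffer markers, C1QA, CD163 and PTPRC were under 1 CPM in every culture, and the sum, mostly LYZ, lay between 1135 and 1459 CPM with vehicle and between 987 and 1087 CPM with TGFβ, without overlap. LYZ stood at 0.787-fold, with an FDR of 0.106 without the block and 0.0157 with it. The part of these marker lists in the members' values was not tested.

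**Figure D5:**
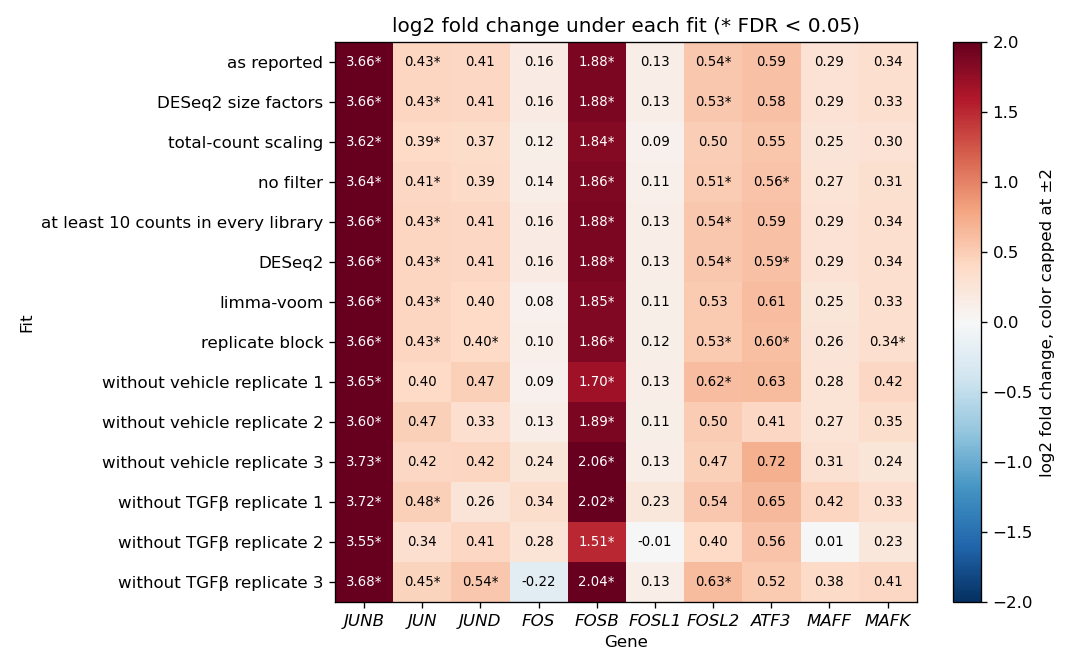
Log2 fold change of each member (columns) under the reported fit and 13 alternative fits (rows), with an asterisk at an FDR under 0.05 and color capped at 2. JUNB and FOSB carry an asterisk in every row, with values from 3.55 to 3.73 and from 1.51 to 2.06, whereas JUN, FOSL2, ATF3, JUND and MAFK carry it in some rows only and FOS, FOSL1 and MAFF in none.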

How the data were processed

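The authors sequenced RNA of 6 HepG2 cultures (TruSeq v2), aligned the reads to hg19 with MAPRseq (TopHat2 2.0.6 and HTSeq in the submitters' processing notes), and deposited raw counts per gene and, beside them, RPKM values scaled by the coding length of the table. The sources used here do not give the annotation release, the strand setting or the rule for overlapping genes.

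The counts were fitted over all genes with edgeR 4.0.16 (limma 3.58.1, R 4.3.3): TMM normalization, filterByExpr (22747 genes kept), a robust quasi-likelihood F test with no block term, Benjamini-Hochberg adjustment over all tested genes, and standard errors implied by the F statistic. The 95% intervals use the same standard errors. RPKM was used only to compare levels between genes. Replicates of a group differed beyond counting noise (chi-square per gene from 21.0 to 46.2). After subtracting group means, cultures with a common number correlated across genes at 0.366, 0.227 and 0.316, and those with unlike numbers at 0.0101 or less. Deviations from a group mean cancel out, so positive values for common numbers push the unlike ones down. The low unlike values are thus no separate evidence of pairing. The numbers were tried as pairs in a fit with the culture number as a block, given where it changes a call and for JUN and FOSL2. The FDRs, standard errors and intervals printed without mention of the block ignore this pairing. The labels do not name separate batches of cells, and P values measure the spread between these cultures. The fit without a block was tested on simulated data. The simulated cultures were independent, without the pairing seen here, so error rates for paired cultures were not tested. Alternatives were DESeq2 1.42.0, limma-voom, the block, scaling by total count or by DESeq2's size factors, testing every gene or those with a minimum of 10 counts in each library, and leaving out each culture.

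The members and the lists were chosen with earlier results of these data known. Named genes are all members; of each list, up to 4 rises and 2 falls of largest change at an FDR under 0.05; the 3 genes most correlated with each called member; and genes overlapping a member. Some genes that the rule names are not reported here, though list counts include them. Motifs were chosen after the values were seen. Promoters are RefSeq sequences (GRCh38.p14), placed in GRCh37 by exact match: 10 entries of 8 members.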

Additional observations from a re-analysis of the deposited data

How the results depend on the processing

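JUNB and FOSB kept their direction and their call under all 13 alternatives. Numbered cultures were paired by the data, and with the replicate block 1837 genes were higher and 853 lower over all genes, 7 members were higher, 8 bZIP relatives were higher and 7 lower, 9 upstream kinases and SRF factors higher and 2 lower, 10 AP-1 targets higher and 2 lower, 9 immediate early genes higher and 2 lower, 3 heat shock genes higher, 2 integrated stress genes higher and 1 lower, and 3 NRF2 targets higher and 2 lower. The block turned no call of a member into a loss. Over all genes, 366 were lower without a filter and 380 with DESeq2, against 230. Total-count scaling, no filter and DESeq2 each gave 1 upstream kinase lower, and these, DESeq2's size factors and the minimum of 10 counts each gave 1 AP-1 target lower, against 0. Total-count scaling left 0 heat shock genes and 1 NRF2 target higher, and no filter left 0 integrated stress genes and 1 NRF2 target higher. With 1 culture left out, between 394 and 778 genes were higher and between 91 and 220 lower; between 2 and 5 members were higher and 0 lower, with 2 higher without vehicle replicate 2, vehicle replicate 3 or TGFβ replicate 2. In the same fits the bZIP relatives had 2 to 4 higher and 2 to 5 lower, upstream kinases 3 to 5 higher and 0 to 1 lower, AP-1 targets 4 to 7 higher and 0 to 1 lower, immediate early genes 4 to 6 higher and 1 lower, heat shock and integrated stress genes 0 to 1 higher, and NRF2 targets 0 to 1 higher. FOS ranged from -0.22 (without TGFβ replicate 3) to 0.34 and FOSL1 from -0.0096 (without TGFβ replicate 2) to 0.23. The causes of these shifts were not tested. The JUNB share of the JUN family with TGFβ was 41.0% from CPM per coding length also. FOSB and FOS had at most 301 reads in a culture.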
